A study of Mus musculus with 4 samples.

Results

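The genes described here are 10 members of the NF-kB system: the 5 subunit genes *Nfkb1*, *Nfkb2*, *Rel*, *Rela* and *Relb*, and the 5 inducible regulators *Nfkbia*, *Nfkbiz*, *Bcl3*, *Tnfaip3* and *Zc3h12a*. They were chosen by gene symbol, and all 10 were found among the 24346 symbols of the deposited tables. All 10 passed the filter on low values, which kept 15896 genes. The study asked whether 7-ketocholesterol (7KC), an oxidized cholesterol, in the diet changes psoriasis-like dermatitis. The RNA came from dorsal skin of male C57BL/6 mice aged 8 weeks when the diet began, with no genetic modification named in the labels. The Cont-IMQ group (2 libraries) was fed the NASH diet, a steatohepatitis diet rich in fat and cholesterol, for 3 weeks, and the 7KC-IMQ group (2 libraries) received the same diet with added 7KC. Both groups then received 5% imiquimod (IMQ) cream, a Toll-like receptor 7 agonist, for 1 day. Vehicle-treated skin was not analysed here, so no value shows what IMQ itself did. The labels do not say whether each library came from 1 animal or from pooled skin or whether replicates are separate animals, so the p-values measure only the spread between libraries.

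NF-kB proteins act as dimers of the subunits p50, p52, c-Rel, RelA and RelB, which are held in the cytoplasm by IkB proteins until receptors for cytokines or microbial products activate the IkB kinases. The freed dimers enter the nucleus, bind kB motifs and switch on inflammatory genes, among them genes for their own inhibitors, which forms a feedback. In skin the pathway is known for its part in psoriasis, where keratinocytes use the nuclear protein IkB-zeta to express antimicrobial proteins and chemokines in response to IL-17 and IL-36.

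Levels were given as FPKM, by definition the fragments of a gene divided by the length of its exons and by all mapped fragments. Whether the program also scaled the libraries is not known here. The sums of FPKM differed between libraries, from 630272 in Cont-IMQ replicate 2 to 702218 in 7KC-IMQ replicate 2. Groups were compared on the log2(FPKM + 1) scale by limma, with Benjamini-Hochberg adjustment over the 15896 genes. None of the 10 genes passed an adjusted p of 0.05 (0 of 10, where 0.00629% of all genes tested passed), and 3 of them, *Bcl3*, *Zc3h12a* and *Nfkb1*, had an unadjusted p under 0.05 in limma, all higher in the 7KC-IMQ group (7.5% of all genes tested were higher in this way). *Bcl3* and *Zc3h12a* had this under all 13 alternatives, but *Nfkb1* did not after rescaling to the same FPKM sum, quantile normalization or housekeeping scaling, nor without Cont-IMQ replicate 2 or either 7KC-IMQ library. None was lower with an unadjusted p under 0.05 (0 of 10, against 5.47% of all genes tested). In 6 of the 10 genes the lower 7KC-IMQ library exceeded the higher Cont-IMQ library, where 23.9% of all genes tested were higher without overlap. The reverse held for 0 of the 10, where 22.9% of all genes were lower without overlap, and in the other 4 genes the groups overlapped. In bulk skin, fewer cells of a type and less RNA per cell cannot be told apart. The median log2 fold change of the 10 genes was 0.15, and that of all genes tested was -0.01. For the 10 genes it was 0.072 after rescaling to the same FPKM sum and 0.026 with housekeeping scaling. The median of all genes tested fell as well under these scalings, to -0.067 and -0.10. That of the 10 genes was 0.24 without Cont-IMQ replicate 2 and 0.29 without 7KC-IMQ replicate 1. The count of 6 depended on the scaling between libraries. It was 4 after rescaling to the same FPKM sum, where 15.0% of all genes were higher without overlap. After division by the level of housekeeping genes it was 3 (*Nfkb1*, *Bcl3* and *Zc3h12a*), where 11.1% of all genes were. Leaving out Cont-IMQ replicate 2 or 7KC-IMQ replicate 1 raised the count. Leaving out any library raised the share of all genes higher without overlap. With 2 libraries in each group, 0.333 is the smallest two-sided p that exact permutation allows, so single genes carry no such p. Housekeeping scaling, chosen after seeing the data, moved the median of all genes to -0.10.

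The order of levels over the 4 libraries ran from *Nfkbia* (mean 260.2 FPKM) through *Zc3h12a* (115 FPKM), *Nfkbiz* (70.3 FPKM), *Bcl3* (50.5 FPKM), *Nfkb1* (47.0 FPKM), *Rela* (30.5 FPKM), *Tnfaip3* (21.1 FPKM), *Nfkb2* (19.1 FPKM) and *Relb* (13.9 FPKM) to *Rel* (13.0 FPKM). Neighbours whose ranges over the 4 libraries overlapped were *Nfkbiz* and *Bcl3*, *Bcl3* and *Nfkb1*, *Tnfaip3* and *Nfkb2*, and *Relb* and *Rel*. *Bcl3* stood below *Nfkb1* in both Cont-IMQ libraries and above it in both 7KC-IMQ libraries. Its mean was 37.3 FPKM against 43.0 FPKM for *Nfkb1* in the Cont-IMQ group and 63.7 FPKM against 51.0 FPKM in the 7KC-IMQ group. Thus the regulators held the 4 highest mean levels, and 4 of the 5 subunits lay below 35 FPKM in every library.

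**Figure D1:**
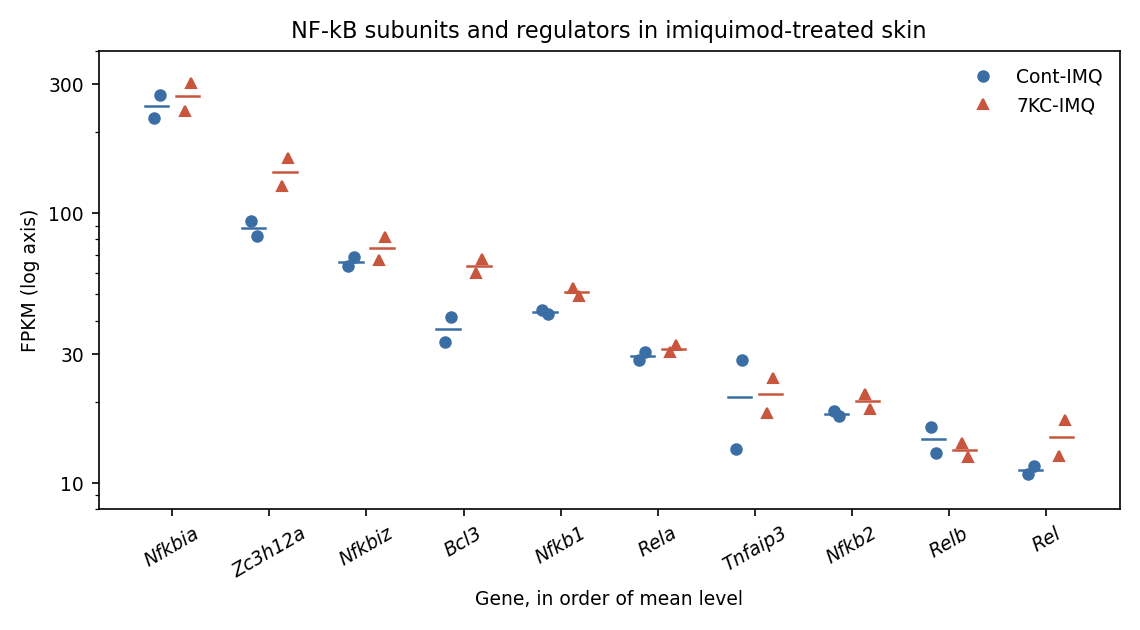
FPKM (log axis) of the 10 genes in each library, with Cont-IMQ libraries as circles, 7KC-IMQ libraries as triangles and group means (n = 2) as horizontal lines. *Bcl3* and *Zc3h12a* show the widest gaps between the groups, and the 4 libraries of *Tnfaip3* run from 13.4 to 28.5 FPKM with the groups mixed.

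Promoters of 7 of the 10 genes were found in the RefSeq table (build GRCm38.p6, 250 bases before to 50 bases after each annotated start). The genes *Nfkb1*, *Relb* and *Nfkbiz* had no entry. The kB motif, 10 bases long and searched by its consensus on both strands, was found in a promoter of 5 of the 7 genes (*Nfkb2*, *Rel*, *Nfkbia*, *Bcl3* and *Tnfaip3*), against 9.55% of the 27025 gene symbols in the table. By window, 8.46% of all 32851 promoters of this length held it. A match is a description of the letters and no evidence of binding. The sequences given here are those of *Bcl3* and *Zc3h12a*, the 2 genes with the largest differences between the groups, of *Nfkb2*, whose first start has 2 separate matches, and of *Nfkbia*, the most abundant member. They are written 5′ to 3′ in the direction of the gene, with matches to the kB motif in capitals.
*Bcl3*, chr7:19822706-19823005, minus strand: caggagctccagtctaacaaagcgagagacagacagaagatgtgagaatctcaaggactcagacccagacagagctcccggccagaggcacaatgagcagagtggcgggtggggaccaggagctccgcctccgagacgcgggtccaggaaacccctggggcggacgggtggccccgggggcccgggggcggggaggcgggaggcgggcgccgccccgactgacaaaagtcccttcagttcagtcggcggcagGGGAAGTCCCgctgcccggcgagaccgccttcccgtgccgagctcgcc
*Zc3h12a*, chr4:125127832-125128131, minus strand: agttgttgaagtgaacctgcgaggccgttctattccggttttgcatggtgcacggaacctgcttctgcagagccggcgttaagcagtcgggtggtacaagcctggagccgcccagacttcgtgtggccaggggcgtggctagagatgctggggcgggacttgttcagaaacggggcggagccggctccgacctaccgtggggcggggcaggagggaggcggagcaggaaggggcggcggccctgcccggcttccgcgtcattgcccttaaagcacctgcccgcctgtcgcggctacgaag
*Nfkb2*, chr19:46304487-46304786, plus strand: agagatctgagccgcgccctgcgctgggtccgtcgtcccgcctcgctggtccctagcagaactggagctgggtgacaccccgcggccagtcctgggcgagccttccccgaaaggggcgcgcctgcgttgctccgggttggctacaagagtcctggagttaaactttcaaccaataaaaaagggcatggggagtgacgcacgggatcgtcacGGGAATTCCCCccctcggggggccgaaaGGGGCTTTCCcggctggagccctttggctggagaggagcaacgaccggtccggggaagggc
*Nfkbia*, chr12:55492598-55492897, minus strand: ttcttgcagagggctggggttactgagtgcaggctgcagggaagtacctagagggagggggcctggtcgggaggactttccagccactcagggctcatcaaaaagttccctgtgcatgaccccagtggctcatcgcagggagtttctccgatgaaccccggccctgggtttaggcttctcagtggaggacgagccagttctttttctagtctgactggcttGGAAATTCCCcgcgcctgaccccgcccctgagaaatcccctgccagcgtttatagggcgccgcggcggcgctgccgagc
In *Bcl3* the match begins at position 3, counting the start as 1, and in *Nfkbia* at position -29. In the first start of *Nfkb2* the matches begin at positions -39 and -11, the first of them being overlapping matches. *Rel* has a match from position -92, and *Tnfaip3* has matches from positions -125 and -12. The start of *Zc3h12a* in the RefSeq table lies before the gene as GENCODE places it, which begins near the end of this window. *Zc3h12a* and *Rela* have no match in these windows, which says nothing on whether NF-kB acts on these genes.

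Among the subunits, *Nfkb1* (ENSMUSG00000028163.17, chr3:135584655-135691547, minus strand) encodes p105, the precursor of p50. It had 43.9 and 42.1 FPKM in Cont-IMQ skin (replicates 1 and 2, in this order throughout) and 52.7 and 49.4 FPKM in the 7KC-IMQ libraries. Replicates lay close together, and the groups were separate. The means of 43.0 ± 1.23 and 51.0 ± 2.36 FPKM (SD, n = 2) gave a log2 fold change of 0.24 (95% interval 0.04 to 0.44, standard error 0.08 and adjusted p = 0.365 by limma). *Nfkb2* (ENSMUSG00000025225.15, chr19:46304320-46312385, plus strand), which encodes the p52 precursor p100, had 18.5 and 17.7 FPKM against 21.4 and 18.8 FPKM. Here 7KC-IMQ replicate 2 lay just above Cont-IMQ replicate 1, and the groups overlapped after rescaling to the same FPKM sum, quantile normalization or housekeeping scaling. Its log2 fold change was 0.14 (standard error 0.10 and adjusted p = 0.581 by limma), 0.052 without 7KC-IMQ replicate 1 and 0.23 without 7KC-IMQ replicate 2. Of its 75-base windows, 13.6% also occur in *Psd* or *AC114539.1*, which overlap it on the opposite strand. *Psd* itself had 0.649 and 0.956 FPKM against 1.02 and 0.569 FPKM, a small level beside that of *Nfkb2*.

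The subunits with a transactivation domain are RelA, c-Rel and RelB. *Rel* (ENSMUSG00000020275.9, chr11:23736847-23770970, minus strand), the gene of c-Rel, stood at 10.8 and 11.6 FPKM without 7KC in the diet and 12.6 and 17.1 FPKM with it. The groups were separate, with most of the distance in 7KC-IMQ replicate 2. Its log2 fold change was 0.37 (standard error 0.16 and adjusted p = 0.433 by limma), and it was 0.16 without 7KC-IMQ replicate 2 and 0.57 without 7KC-IMQ replicate 1, where its unadjusted p was under 0.05. *Rela* (ENSMUSG00000024927.8, chr19:5637483-5648130, plus strand), the gene of the main p50 partner, had 28.6 and 30.5 FPKM against 30.6 and 32.4 FPKM. The separation of *Rela* was narrower than the distance between replicates, the groups overlapped under all 4 other scalings, and its log2 fold change of 0.09 (standard error 0.08 and adjusted p = 0.675 by limma) was 0.043 without Cont-IMQ replicate 1, 0.049 without 7KC-IMQ replicate 2 and -0.0375 with housekeeping scaling. *Relb* (ENSMUSG00000002983.17, chr7:19606217-19629438, minus strand), whose product pairs with p52 in the noncanonical pathway, had 16.2 and 12.9 FPKM against 14.0 and 12.5 FPKM. It was the only member with a lower mean in the 7KC-IMQ group, but the groups overlapped, and its log2 fold change was -0.12 (standard error 0.14 and adjusted p = 0.746 by limma) and 0.0318 without Cont-IMQ replicate 1.

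As a description without a test, the summed level of the 5 subunits was 118 and 115 FPKM in Cont-IMQ skin and 131 and 130.1 FPKM in the 7KC-IMQ libraries. *Nfkb1* was the largest share in every library, at 37.2% and 36.7% against 40.1% and 38.0%, followed by *Rela* at 24.3% and 26.6% against 23.3% and 24.9%. *Relb* made up 13.7% and 11.3% of the sum in the Cont-IMQ group and 10.7% and 9.59% in the 7KC-IMQ group, so that its share was lower in both 7KC-IMQ libraries although its level overlapped. The share of *Rel* was 9.13% and 10.1% against 9.58% and 13.1%, and only 7KC-IMQ replicate 2 stood apart. *Nfkb2* held 15.7% and 15.4% against 16.3% and 14.4%. The ratio of *Nfkb2* to *Nfkb1* was 0.422 and 0.419 against 0.406 and 0.380, lower in both 7KC-IMQ libraries by a small amount.

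**Figure D2:**
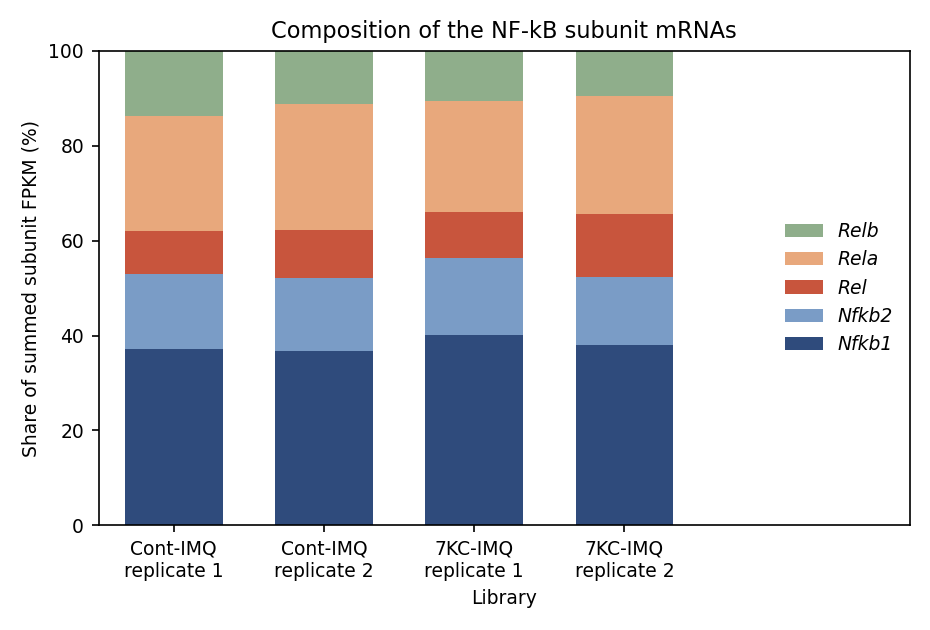
Share of each subunit in the summed FPKM of the 5 subunit genes (bars, percent) in each of the 4 libraries. The order of the subunits by share is headed by *Nfkb1* and *Rela* in all libraries, and the *Relb* segment runs from 13.7% in Cont-IMQ replicate 1 to 9.59% in 7KC-IMQ replicate 2.

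*Nfkbia* (ENSMUSG00000021025.8, chr12:55489410-55492647, minus strand) encodes IkB-alpha, which NF-kB induces within a short time and which returns dimers to the cytoplasm. It stood at 225 and 274 FPKM without 7KC in the diet and 238 and 303 FPKM with it, so that the 2 groups interleaved and replicate 2 was the higher library in each. The log2 fold change of *Nfkbia* was 0.11 (95% interval -0.32 to 0.55, standard error 0.16 and adjusted p = 0.799 by limma). Its sign turned without Cont-IMQ replicate 1 (-0.0292) and without 7KC-IMQ replicate 2 (-0.0585). With housekeeping scaling, which lowered the median of all genes to -0.10, the log2 fold change was -0.0145. Relative to *Rela*, the subunit it restrains, *Nfkbia* stood at a ratio of 7.84 and 8.99 against 7.78 and 9.36, again with overlap.

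*Tnfaip3* (ENSMUSG00000019850.11, chr10:19000910-19015657, minus strand) encodes A20, a ubiquitin-editing enzyme that shuts off signaling upstream of the IkB kinases. It stood at 13.4 and 28.5 FPKM without 7KC in the diet and 18.1 and 24.6 FPKM with it. The lowest and the highest value both belonged to the Cont-IMQ group, and the 2.13-fold distance between its replicates was the largest of the 10 genes. The log2 fold change of *Tnfaip3* was 0.10 (95% interval -0.89 to 1.10, standard error 0.38 and adjusted p = 0.931 by limma). It was -0.41 without Cont-IMQ replicate 1, 0.62 without Cont-IMQ replicate 2 and -0.10 without 7KC-IMQ replicate 2, so that its sign depended on single libraries. With housekeeping scaling, which lowered the median of all genes to -0.10, it was -0.0191.

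*Nfkbiz* (ENSMUSG00000035356.17, chr16:55811375-55838899, minus strand) encodes IkB-zeta, the nuclear cofactor through which IL-17 and IL-36 act on keratinocyte genes. It stood at 63.5 and 68.9 FPKM without 7KC in the diet and 67.0 and 81.8 FPKM with it. Only 7KC-IMQ replicate 2 lay above both Cont-IMQ libraries. The log2 fold change was 0.16 (95% interval -0.16 to 0.48, standard error 0.12 and adjusted p = 0.614 by limma), and it was 0.018 without 7KC-IMQ replicate 2, 0.30 without 7KC-IMQ replicate 1 and 0.033 with housekeeping scaling. Its ratio to *Nfkbia* was 0.283 and 0.251 against 0.281 and 0.270.

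*Bcl3* (ENSMUSG00000053175.17, chr7:19808462-19822770, minus strand) encodes an atypical IkB protein that binds p50 and p52 homodimers in the nucleus and can act as their coactivator. Its level was 33.3 and 41.4 FPKM in the Cont-IMQ replicates 1 and 2, against 59.9 and 67.6 FPKM in those fed 7KC. The lower 7KC-IMQ library was above the higher Cont-IMQ library, and the gap between them was wider than the distance between the libraries of either group. The group means were 37.3 ± 5.68 and 63.7 ± 5.43 FPKM (SD, n = 2), a 1.71-fold difference. The log2 fold change was 0.76 (95% interval 0.41 to 1.11, standard error 0.13 and adjusted p = 0.352 by limma), the 156th highest of the 15896 genes tested. Without each library in turn it lay between 0.61 and 0.91. Of the 75-base windows of *Bcl3* transcripts, 1.38% also occur in another gene, *Gm16175*, which overlaps it on the opposite strand.

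*Zc3h12a* (ENSMUSG00000042677.7, chr4:125118423-125127840, minus strand) encodes Regnase-1, an endoribonuclease that cuts mRNAs of inflammatory cytokines and so limits what NF-kB switches on. Its level was 93.6 and 82.4 FPKM in the Cont-IMQ replicates 1 and 2, against 126 and 159.5 FPKM in those fed 7KC. Again the groups did not overlap, and 7KC-IMQ replicate 2 was the highest. The group means were 88.0 ± 7.93 and 143 ± 23.8 FPKM (SD, n = 2), a 1.62-fold difference. The log2 fold change was 0.68 (95% interval 0.31 to 1.06, standard error 0.14 and adjusted p = 0.352 by limma), the 194th highest of the genes tested. It lay between 0.51 and 0.85 without each library in turn, and under every alternative scaling *Bcl3* and *Zc3h12a* were higher without overlap.

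Set against other members in the same library, where a single scaling factor per library cancels, both differences were still seen. The ratio of *Bcl3* to *Nfkb1*, whose product p50 it binds, was 0.760 and 0.982 in the Cont-IMQ libraries and 1.14 and 1.37 in the 7KC-IMQ libraries. For *Zc3h12a* over *Nfkbia* it was 0.417 and 0.300 against 0.528 and 0.526. Neither ratio overlapped between the groups, and both were chosen after the values were seen. The ratios of *Zc3h12a* to *Bcl3* and to *Tnfaip3* did overlap.

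**Figure D3:**
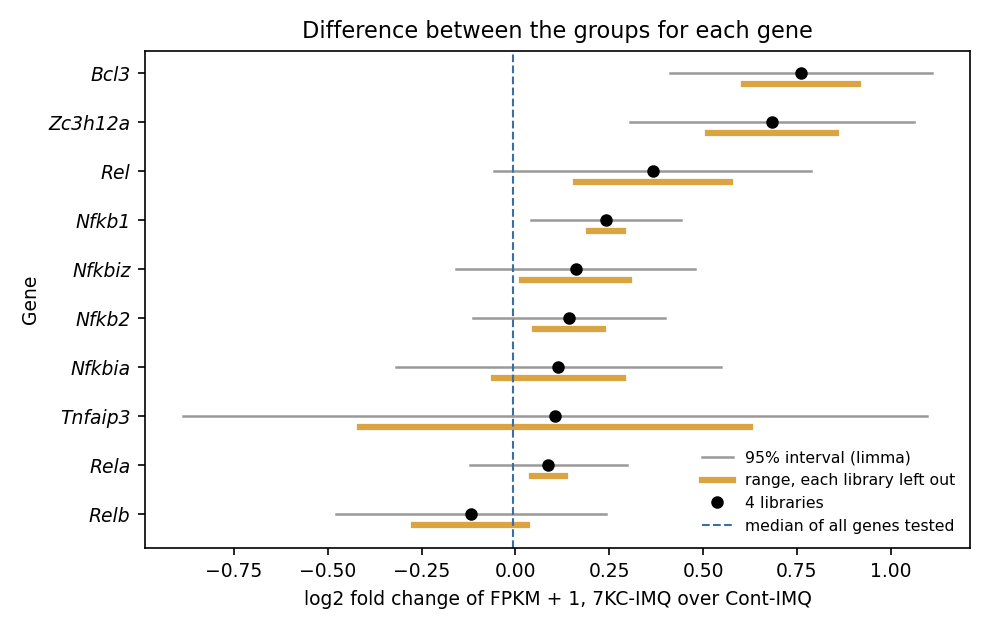
Log2 fold change of FPKM + 1 (7KC-IMQ over Cont-IMQ) of each gene as a point, with its 95% interval from limma (thin line, not adjusted for the number of genes), the range with each library left out in turn (thick line) and the median of all genes tested (dashed). The intervals of *Bcl3*, *Zc3h12a* and *Nfkb1* lie above 0 (for *Nfkb1* not under 6 of the alternatives), and that of *Tnfaip3* runs from -0.89 to 1.10.

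The level of *Nfkbiz* can be set beside that of genes known to need IkB-zeta in keratinocytes. Of 16 such genes, 0 passed the adjusted threshold in limma (14 had an unadjusted p under 0.05), 15 were higher without overlap, and 0 were lower, and the median log2 fold change was 1.21, against 0.16 for *Nfkbiz* itself. The genes of this list with the largest differences were *Defb3*, *Il19* and *S100a8*, which encode a beta-defensin, a cytokine of the IL-20 family and a calcium-binding alarmin. Several genes of this list were also displayed by the study for these libraries and are not independent evidence. *S100a8* is also abundant in neutrophils, whose part was not tested. The difference between *Nfkbiz* and the list was not tested. For this list and those that follow, the shares over all genes tested were 23.9% higher and 22.9% lower without overlap.

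*Zc3h12a* can likewise be set beside mRNAs that Regnase-1 is known to cut. Of 13 listed mRNAs 12 were tested, 0 passed the adjusted threshold in limma (7 had an unadjusted p under 0.05), 8 were higher without overlap, 0 were lower, and the median log2 fold change was 0.67. Thus the mRNA of the nuclease and most mRNAs of this list were higher in the same libraries. The list was chosen with earlier results of these data known and is not independent evidence. Its genes *Il6* and *Il1b* were reported by the study as higher in 7KC-IMQ skin by quantitative PCR. The largest differences in the list were those of *Il6*, *Cxcl3* and *Cxcl1*. *Cxcl3*, a neutrophil-attracting chemokine, had 2.33 and 2.60 FPKM against 7.22 and 10.5 FPKM, and its log2 fold change was 1.49 (standard error 0.19 and adjusted p = 0.331 by limma). Regnase-1 protein and its activity were not measured in these libraries. Of 11 other regulators of mRNA decay, stabilizers among them, 4 were higher and 5 lower without overlap (1 and 5 with housekeeping scaling). In limma 0 passed the adjusted threshold, 2 had an unadjusted p under 0.05 (both lower), and the median log2 fold change was 0.07. This median was -0.014 after rescaling to the same FPKM sum and -0.059 with housekeeping scaling, against -0.067 and -0.10 for all genes tested. *Zfp36*, which encodes the AU-rich element binding protein tristetraprolin, was the most abundant of them and had 269 and 244 FPKM against 161 and 215 FPKM, in the opposite direction to *Zc3h12a* (log2 fold change -0.46, standard error 0.16, adjusted p = 0.372 in limma, and -0.25 without 7KC-IMQ replicate 1). *Zfp36l2* and *Rc3h2*, which encodes a roquin, were also lower without overlap (-0.24 and -0.22), whereas *Arid5a*, which encodes a protein known to stabilize *Il6* mRNA, *Zc3h12c*, a relative of *Zc3h12a*, and *Elavl1* were higher (0.34, 0.20 and 0.12, where *Elavl1* turned negative with housekeeping scaling).

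The signal reaches the subunits through receptors, adaptors and kinases. Of 32 receptor and adaptor genes, 12 were higher and 2 lower without overlap (7 and 4 after rescaling to the same FPKM sum, 5 and 11 with housekeeping scaling). Of them 0 passed the adjusted threshold in limma (5 at an unadjusted p under 0.05), and the median log2 fold change was 0.11. With housekeeping scaling this median was -0.00053, against -0.10 for all genes tested. The share of all genes lower without overlap under the other scalings is not given here. *Tlr2*, the receptor for bacterial lipopeptides, had 4.62 and 4.33 FPKM against 7.30 and 8.31 FPKM (log2 fold change 0.68, standard error 0.11, adjusted p = 0.352 in limma). *Il1r1*, the IL-1 receptor, and *Myd88*, the adaptor of IL-1 and Toll-like receptors, followed with log2 fold changes of 0.42 and 0.41. *Card10* and *Tlr4* were lower (-0.25 and -0.20), and *Card10* was at -0.082 without 7KC-IMQ replicate 2 and -0.42 without 7KC-IMQ replicate 1. The kinase list held 14 genes, among them *Rnf31*, *Rbck1* and *Sharpin* of a ubiquitin ligase complex, and had a median of 0.00. This median was -0.08 after rescaling to the same FPKM sum and -0.12 with housekeeping scaling, where 4 and 7 were lower without overlap. For all genes tested the medians were then -0.067 and -0.10. Without added scaling 1 gene was higher without overlap (*Rnf31*, 0.30), 2 were lower (*Tab1* and *Tab2*, both -0.12) and 0 passed the adjusted threshold in limma (1 at an unadjusted p under 0.05). The IkB kinase genes themselves had 13.2 and 13.9 against 13.3 and 14.9 FPKM for *Chuk*, 16.8 and 18.6 against 18.5 and 16.7 FPKM for *Ikbkb*, and 6.26 and 5.69 against 6.02 and 5.67 FPKM for *Ikbkg*. These 3 genes were picked for their role after the values were seen, and all overlapped.

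Of 16 other IkB proteins and inhibitors of the pathway, 7 were higher and 4 lower without overlap (5 and 6 after rescaling to the same FPKM sum or with housekeeping scaling). The 4 lower genes were 25% of the list, near the 22.9% of all genes tested. In the list 0 passed the adjusted threshold in limma (4 at an unadjusted p under 0.05), and the median log2 fold change was 0.03. This median was -0.049 after rescaling to the same FPKM sum and -0.085 with housekeeping scaling, against -0.067 and -0.10 for all genes tested. The higher ones included *Nfkbid*, the gene of the nuclear protein IkB-NS and a close relative of *Bcl3* and *Nfkbiz*, with a mean of 3.09 FPKM against 4.18 FPKM (n = 2 each, log2 fold change 0.34, standard error 0.11, adjusted p = 0.365 in limma). *Tnip1*, the gene of a partner of A20, and *Nfkbib*, the gene of IkB-beta, also were higher (0.27 and 0.26). *Tnip1* was at 0.14 without Cont-IMQ replicate 2. *Tnfaip8l2*, *Cyld*, the gene of a deubiquitinase that restrains the pathway, and *Itch* were lower (-0.40, -0.20 and -0.16). *Itch* was at -0.093 without Cont-IMQ replicate 2 and -0.097 without 7KC-IMQ replicate 1. So the nuclear IkB proteins *Bcl3* and *Nfkbid* were separate between the groups and *Nfkbiz* was not, and the difference among them was not tested.

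Of 37 genes known as NF-kB targets, 20 were higher and 2 lower without overlap, 0 passed the adjusted threshold in limma (17 at an unadjusted p under 0.05, 16 of them higher), and the median log2 fold change was 0.44, above that of the 10 members (0.15). This list shares 5 genes with the IkB-zeta list (31.2% of that list and 13.5% of this one) and 5 with the Regnase-1 list (38.5% of that list). The target list too was chosen with earlier results of these data known and is not independent evidence. It holds *Il6* and *Il1b*, which the study reported as higher. The largest differences in it were those of *Il6*, *Cxcl1* and *Csf2*. *Csf2*, the gene of the cytokine GM-CSF, had 1.18 and 0.478 FPKM against 3.98 and 2.48 FPKM. *Mmp9* and *Ccl5* were lower without overlap, with log2 fold changes of -0.50 and -0.31, and that of *Mmp9* was -0.12 without Cont-IMQ replicate 2. Housekeeping genes were higher more often than lower as well, with 8 of 14 higher and 1 lower without overlap (4 and 3 after rescaling to the same FPKM sum), 0 past the adjusted threshold in limma (1 at an unadjusted p under 0.05) and a median log2 fold change of 0.13, which is close to 0 by construction with housekeeping scaling. Their largest differences were those of *Pgk1* (0.36), *Gapdh* (0.24) and *Polr1a* (0.23), and *Polr2a* was lower (-0.10). The median of the 10 members was thus close to that of the housekeeping genes, while *Bcl3* and *Zc3h12a* lay beyond every gene of the housekeeping list.

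**Figure D4:**
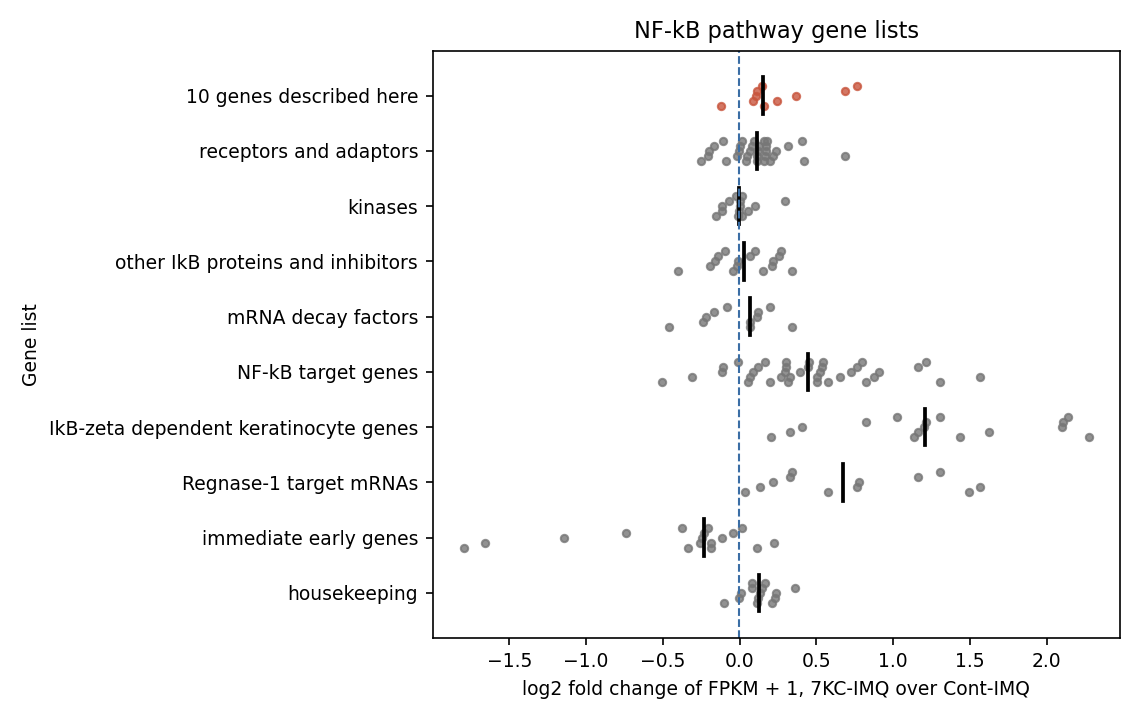
Log2 fold change of FPKM + 1 (7KC-IMQ over Cont-IMQ) of every gene tested in each list as a point, with the list's median as a vertical bar and the median of all genes tested as a dashed line. The 10 members have a median of 0.15, the kinase list (which also holds ubiquitin ligase genes) 0.00, the NF-kB targets 0.44 and the genes that depend on IkB-zeta 1.21.

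Genes that answer to handling and stress within minutes were also measured, since *Nfkbia* and *Tnfaip3* respond fast too. Of 17 immediate early genes, 0 were higher and 4 lower without overlap in the 7KC-IMQ group. The 4 lower genes were 23.5% of the list, near the 22.9% of all genes tested, of which 23.9% were higher. In limma 0 of the list passed the adjusted threshold (2 at an unadjusted p under 0.05), and the median log2 fold change was -0.23. Their summed level was 2620 and 3139 FPKM in Cont-IMQ skin and 1658 and 2660 FPKM in the 7KC-IMQ libraries, lowest in 7KC-IMQ replicate 1. *Fos* had 496 and 546 FPKM against 97.4 and 277 FPKM, and *Dusp1* and *Egr1* were lower as well (log2 fold changes -0.74 and -0.37). Without 7KC-IMQ replicate 1 the log2 fold changes were -0.91 for *Fos*, -0.34 for *Dusp1* and -0.11 for *Egr1*. The part of the immediate early response in the values of the 10 members was not tested.

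The libraries held RNA of several cell types. Over all genes tested, 23.9% were higher and 22.9% lower without overlap. The share of keratinocyte markers higher (25%) and that of macrophage and monocyte markers lower (20%) lay near these. Keratinocyte markers were abundant, with 2 of 8 higher and 0 lower without overlap, or 1 and 4 with housekeeping scaling (*Krt14* 0.29, and *Cdh1* 0.11, negative with housekeeping scaling), a summed level of 22388 and 15023 FPKM against 17486 and 19400.2 FPKM, and *Krt10* as the most abundant gene (8444 and 4597 against 5283 and 5553 FPKM). Neutrophil markers were at 18.9 and 22.1 FPKM in sum against 29.3 and 32.2 FPKM, with 5 of 7 tested higher without overlap, 0 lower, and *Cxcr2* the most abundant (13.4 and 15.0 against 20.2 and 23.0 FPKM). *Csf3r* and *Retnlg* were higher too (0.14 and 0.72), but *Csf3r* overlapped with housekeeping scaling, where 4 instead of 5 markers were higher without overlap. *Csf3r* was at 0.062 without 7KC-IMQ replicate 2, and *Retnlg* at 0.45 without replicate 1 of either group. The other 2 markers tested, *Elane* (-0.34) and *Ngp* (0.09), overlapped. They are named after their values were seen, and the part of neutrophils in the differences of *Bcl3* and *Zc3h12a* was not tested.

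Of the other immune lists, macrophage and monocyte markers summed to 757 and 939 FPKM against 727 and 802 FPKM, with 0 of 10 higher and 2 lower without overlap, or 4 lower after rescaling to the same FPKM sum or with housekeeping scaling and 5 with quantile normalization (*Cd68* -0.17 and *Csf1r* -0.15) and *C1qb* the most abundant. Dendritic and Langerhans cell markers summed to 139 and 122 FPKM against 142 and 129.8 FPKM, with 2 of 8 higher and 1 lower. These counts were 0 and 1 after rescaling to the same FPKM sum or with housekeeping scaling, and 2 and 0 with quantile normalization. *Epcam*, the most abundant, was at 0.09 but negative with quantile normalization and housekeeping scaling, and *Zbtb46* was at -0.14. T cell markers summed to 25.0 and 20.4 FPKM against 20.03 and 16.3 FPKM, with 1 of 8 tested higher (*Cd3d*, 0.04 but negative after rescaling to the same FPKM sum and with housekeeping scaling) and 3 lower (*Cd3g*, the most abundant, -0.53, *Cd3e* -0.36 and *Cd247* -0.25). B cell markers were near 0, with *Ms4a1* and *Pax5* listed at 0 in all 4 libraries, sums of 0.627 and 0.567 FPKM against 0.524 and 1.79 FPKM, *Cd79b* as the most abundant gene, and 1 of 3 tested higher and 0 lower. The part of these cells in the levels of the 10 members was not tested.

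Endothelial markers had 0 of 6 higher and 5 lower without overlap (*Tek* -0.52, *Vwf* -0.45 and *Emcn* -0.41 the lowest), sums of 53.1 and 58.6 FPKM against 44.3 and 42.4 FPKM, and *Pecam1* as the most abundant gene. Fibroblast markers had 1 of 6 higher (*Pdgfra* 0.32) and 1 lower (*Dcn*, the most abundant, -0.23), with sums of 3406 and 2446 FPKM against 3178 and 2788 FPKM. Adipocyte markers had 3 of 6 higher (*Lep* 1.58, *Plin1* 0.38 and *Pparg* 0.25) and 0 lower. Without 7KC-IMQ replicate 1, *Lep* was at 0.98 and *Pparg* at 0.15, and *Pparg* overlapped with housekeeping scaling. The sums of adipocyte markers were 984 and 1423 FPKM against 1408 and 963 FPKM, with *Fabp4* as the most abundant gene. Skeletal muscle markers had 2 of 7 higher (*Myh4* 2.07 and *Ckm* 0.19) and 2 lower (*Myh1* -0.76 and *Acta1*, the most abundant, -0.36), with sums of 7918 and 7675 FPKM against 6522 and 7712 FPKM. Red blood cell markers had 0 of 3 tested higher and 1 lower (*Hbb-bs* -1.61, overlapping under quantile normalization), with sums of 27.0 and 6.79 FPKM against 6.74 and 25.6 FPKM and *Hba-a1* as the most abundant gene. *Hbb-bs* had 8.32 FPKM in Cont-IMQ replicate 1 and at most 0.00438 FPKM in the other libraries, so that its value came from that library alone. None of the genes tested in the marker lists passed the adjusted threshold in limma (0 in each list), and the counts at an unadjusted p under 0.05 were 5 for endothelial, 3 for neutrophil, 2 each for T cell, adipocyte and skeletal muscle markers and 0 for the others. Medians ran from -0.41 (endothelial) to 0.52 (neutrophil). Those of keratinocyte and skeletal muscle markers, near 0, turned negative under all 4 other scalings, where the median of all genes tested was negative too.

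Hair follicle markers differed most between the Cont-IMQ libraries. They summed to 129 FPKM in Cont-IMQ replicate 1 and 1633 FPKM in replicate 2, against 485 and 428 FPKM in the 7KC-IMQ libraries, with 0 of 12 higher or lower without overlap and *Krt71* as the most abundant gene (34.5 and 503 against 135 and 112 FPKM). The 7KC-IMQ libraries lay between the Cont-IMQ libraries. With Cont-IMQ replicate 2 left out, *Bcl3* had a log2 fold change of 0.91 and *Zc3h12a* of 0.59, and with Cont-IMQ replicate 1 left out they had 0.61 and 0.77. Since the groups did not overlap for these 2 genes, their sign could not turn in this way, and the part of the hair follicle difference in the values of the members was not tested. *Tnfaip3* had opposite signs in these 2 comparisons.

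The genes whose profile over the 4 libraries was most like that of *Bcl3*, the member with the largest difference, were *Plet1*, *Acot5*, *Ccl7*, *Csf3* and *Clec4d*, by the Euclidean distance of the centred log2(FPKM + 1) profile among 13100 other genes with a mean of at least 1 FPKM. Distances were between 0.0910 and 0.147. *Plet1* had 68.1 and 78.9 FPKM against 119 and 127 FPKM, and the chemokine gene *Ccl7* had 95.1 and 120.05 FPKM against 161 and 174 FPKM. With 4 libraries many genes share such a profile, and the likeness is given as a description only.

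The depth behind these values was estimated from low values of genes with 1 annotated transcript, which come in steps of 1 read, as 15220000 and 15130000 reads for the Cont-IMQ libraries, and as 16190000 and 14990000 for those of the 7KC-IMQ group. If the program scaled the libraries, these are the scaled totals and not the mapped reads. At that depth *Tnfaip3* would have at least 52 reads in its lowest library if all came from its shortest annotated coding transcript, and 858 if they came from the longest. The counting error of the members would then be at most 13.9% in any library, and 5.97% for *Bcl3* and 1.77% for *Zc3h12a*. These errors cover counting only and not the variation between animals or libraries. For *Tnfaip3*, *Rela* and *Relb* they could reach 13.9%, 11.9% and 10.1%, so that differences as small as theirs may not be detectable at this depth if the shortest transcripts were the source.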

How the data were processed

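RNA sequence analysis was carried out on IMQ-treated dorsal skin in 4 libraries, 2 Cont-IMQ and 2 7KC-IMQ, with groups and replicate numbers taken from the sample labels. Reads of 75 bases, single-end, were mapped to mm10 by the authors, who deposited FPKM values in 1 table per library. The submitters' processing notes name TopHat2 2.1.1, Bowtie2 2.2.8, SAMtools 0.1.18 and Cuffdiff 2.2.1. The study's methods name other versions and Cufflinks instead of Cuffdiff, so which program made the FPKM, and how it scaled the libraries, is not known here. A stranded mRNA kit was used, and whether strand was used in counting, and how reads shared between genes were treated, is not given in the sources used here.

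No scaling was added to the values. The 15896 genes whose mean FPKM reached 0.1 were compared on log2(FPKM + 1), which understates the change of low genes, by limma 3.58.1 (lmFit, eBayes with trend) in R 4.3.3, two-sided, with Benjamini-Hochberg adjustment at 0.05. The fit was tested on simulated data, but the outcome is not given here. Other steps used Python 3.11.15, pandas 2.3.3, numpy 2.4.6 and matplotlib 3.10.9. Depth was estimated as the number of reads that brought most values of 0.5 to 6.5 reads within 0.1 of a whole read, for single transcripts of at least 500 bases and fragments of 200 ± 80 bases. In this way 73.1% to 75.6% of values were near whole, against 20% if spread evenly. Positions came from GENCODE M21 (GRCm38, also called mm10).

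The members and the 21 gene lists were chosen with earlier results of these data known. Genes named were the 10 members, and of each list up to 3 with the largest rise and 3 with the largest fall, where the mean FPKM reached 1 and the groups did not overlap. For marker lists the most abundant gene and markers listed at 0 were added, and for the pattern of *Bcl3* the 5 nearest genes. Outside this rule, *Chuk*, *Ikbkb*, *Ikbkg*, *Elane* and *Ngp* were named after their values were seen. *Il36g* was matched through its other symbol, *Il1f9*, and *Ly6g* and *Hbb-bt* were not matched. The alternatives were another pseudocount (0.1), a mean FPKM of at least 1, no filter, median ratio scaling, the same FPKM sum, quantile normalization, no variance trend, a replicate block, each library left out and, added after seeing the data, housekeeping scaling by 13 genes without *Tfrc*.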

Additional observations from a re-analysis of the deposited data

How the results depend on the processing

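Across 13 alternatives, the 130 log2 fold changes of the members never passed the adjusted threshold in limma, and 6 members (*Nfkb1*, *Nfkb2*, *Rel*, *Nfkbiz*, *Bcl3* and *Zc3h12a*) were higher in the 7KC-IMQ group under every one. The adjusted p of *Bcl3* lay between 0.280 and 0.969, and that of *Zc3h12a* between 0.277 and 0.969. The sign turned in 8 values. For members without overlap it could not turn when a library was left out. No filter, a mean FPKM of at least 1, no variance trend and the replicate block left every member's log2 fold change unchanged. Under those alternatives the same sign was therefore fixed in advance. Without a library in turn, the log2 fold change ranged from -0.27 to 0.0318 for *Relb*, from -0.0585 to 0.29 for *Nfkbia* and from -0.41 to 0.62 for *Tnfaip3*. With housekeeping scaling, chosen after seeing the data, it was -0.0375 for *Rela*, -0.0145 for *Nfkbia* and -0.0191 for *Tnfaip3*, and 3 members were higher without overlap instead of 6. Housekeeping scaling lowered the median of all genes to -0.10, and the cause of the turned signs was not tested. The difference in share (7KC-IMQ minus Cont-IMQ, percentage points) ranged from -1.10 to 0.767 for *Nfkb2*, from -0.0195 to 3.51 for *Rel*, from -3.56 to -1.12 for *Relb*, from -2.49 to -0.181 for *Rela* and from 1.01 to 3.17 for *Nfkb1* without a library in turn. Of the 62 genes named from the lists, 34 had a log2 fold change that moved by more than 1.5 times without a library, and 13 overlapped under another scaling.

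Over all genes tested, 1 gene passed the adjusted threshold, 2 with a pseudocount of 0.1, and between 1 and 11 without a library in turn, where the lone library was assumed to vary like the other group. It was 11 without Cont-IMQ replicate 1 and 5 without Cont-IMQ replicate 2, and the cause was not tested. With the replicate number as a block (replicate block), 1 gene and 0 members passed, and 4 members instead of 3 had an unadjusted p under 0.05, *Rel* being the added gene. This count was 2, without *Nfkb1*, after rescaling to the same FPKM sum, with quantile normalization, with housekeeping scaling and without 7KC-IMQ replicate 2. The numbers are not known to pair the samples. Across genes, the difference between replicates 2 and 1 correlated between the groups with r = 0.0651, genes not being independent replicates. Replicate 2 was the higher library of both groups in 6 of 10 members, 16 of 17 immediate early genes and 25.4% of all genes tested. If all reads came from the shortest coding transcripts, depth may limit *Tnfaip3*, *Rela* and *Relb*, whose counting error could then reach 13.9%, 11.9% and 10.1%. With the longest they would have at least 858, 1097 and 376 reads in each library. Which transcripts were the source is not known here.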
